A study of Mus musculus with 27 samples.

Results

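RNA was compared between wild-type embryoid bodies at day 10 and the same line at day 0, the start of differentiation. The 6 libraries, 3 for each day, were taken by their labels from the 27 of the series, and each gene was followed through the 3 wild-type libraries of day 3 as well. The question of the series is the role of the RNA-binding STAR family in early development of mammals, and it sets this wild-type line beside 1 line labelled Quaking KO and 1 labelled Sam68 KO. The wild-type cells are E14, an embryonic stem cell line from the mouse, and carry no knock-out. The labels name the cells mouse embryonic stem cells at every time and call the replicates biological. Total RNA was depleted of ribosomal RNA and sequenced in read pairs from a stranded library kit.

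Embryonic stem cells are the cultured counterpart of the epiblast, the tissue of the early embryo that forms the body. In an embryoid body the cells aggregate and, without the factors that keep them undifferentiated, leave pluripotency, pass through states like the primitive streak and then form mixtures of heart, vessel, blood, connective tissue and yolk sac cells. In such a mixture, and at any single gene below, fewer cells of a type and less RNA per cell cannot be told apart.

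Depth was alike: totals in units of 1e+06 counts ran between 67.0 and 67.9 for day 0, between 66.5 and 69.2 for day 3 and between 66.4 and 71.3 for day 10. Of 21060 genes tested with edgeR's quasi-likelihood test, 80.8% were called at a Benjamini-Hochberg adjusted p under 0.05, so a call alone says little about a group of genes. A second rule therefore asked for a change past 2-fold (edgeR's glmTreat, adjusted p under 0.05), which 24.2% of genes met as higher at day 10 and 16.5% as lower. Counts of a group below use this second rule, and "rose" or "fell" means called by the first. Levels are counts per 1e+06 counts of a library (CPM) after TMM scaling, differences are log2 changes of day 10 over day 0 ± SE, and the median log2 change of all genes tested was 0.01.

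Day 10 replicate 1 stood apart from the other two libraries of its day. Across genes, its counts differed from replicates 2 and 3 by a chi-square of 90.0 and 84.7 per degree of freedom, against 13.45 between those 2. Its summed ribosomal protein transcripts were the lowest of that day, at 45469, 60340.0 and 57140.0 CPM in the 3 replicates of day 10, against 71796, 71563 and 74595 CPM in those of day 0. Its summed nuclear long noncoding RNAs were the highest, at 2556, 1483 and 1515 CPM at day 10 and 1896, 1706 and 1408 CPM at day 0. The typical gene varied more between replicates at day 10 (a common biological coefficient of variation of 12.8%) than at day 0 (4.10%). Without day 10 replicate 1, 5209 genes were higher and 3663 lower past 2-fold, against 5091 and 3465 with it, and 8306 genes were called past 2-fold both ways. Its part in single results was not tested beyond the values given without it.

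The stem cell label was checked first. Pou5f1, the central transcription factor of pluripotency, had 34.7, 29.8 and 38.2 CPM at day 10, against 933, 943 and 994 CPM at day 0. Nanog, another factor of the same network, had 18.1, 15.8 and 21.5 CPM at day 10 and 416, 433 and 431 CPM at day 0. The libraries of the 2 days did not overlap for either gene, as for 81.9% of all genes tested, so the day 0 libraries carried these 2 markers and the day 10 libraries kept traces of them. Of 15 core pluripotency genes, 13 were lower past 2-fold, where 16.5% of all genes were. Their summed levels were 772, 693 and 708 CPM at day 10 and 5397, 5474 and 5492 CPM at day 0. Some markers of fibroblasts, such as feeder cells, were near 0 at day 0. Dcn, a matrix proteoglycan, had 87.2, 121 and 139 CPM at day 10 and 0.0164, 0 and 0.0636 CPM at day 0. The matrix genes Col3a1, Lum and Postn averaged 0.390, 0.0108 and 0.0588 CPM at day 0. Col1a1, Col1a2 and Pdgfrb, also set as such markers, are not described here.

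**Figure D1:**
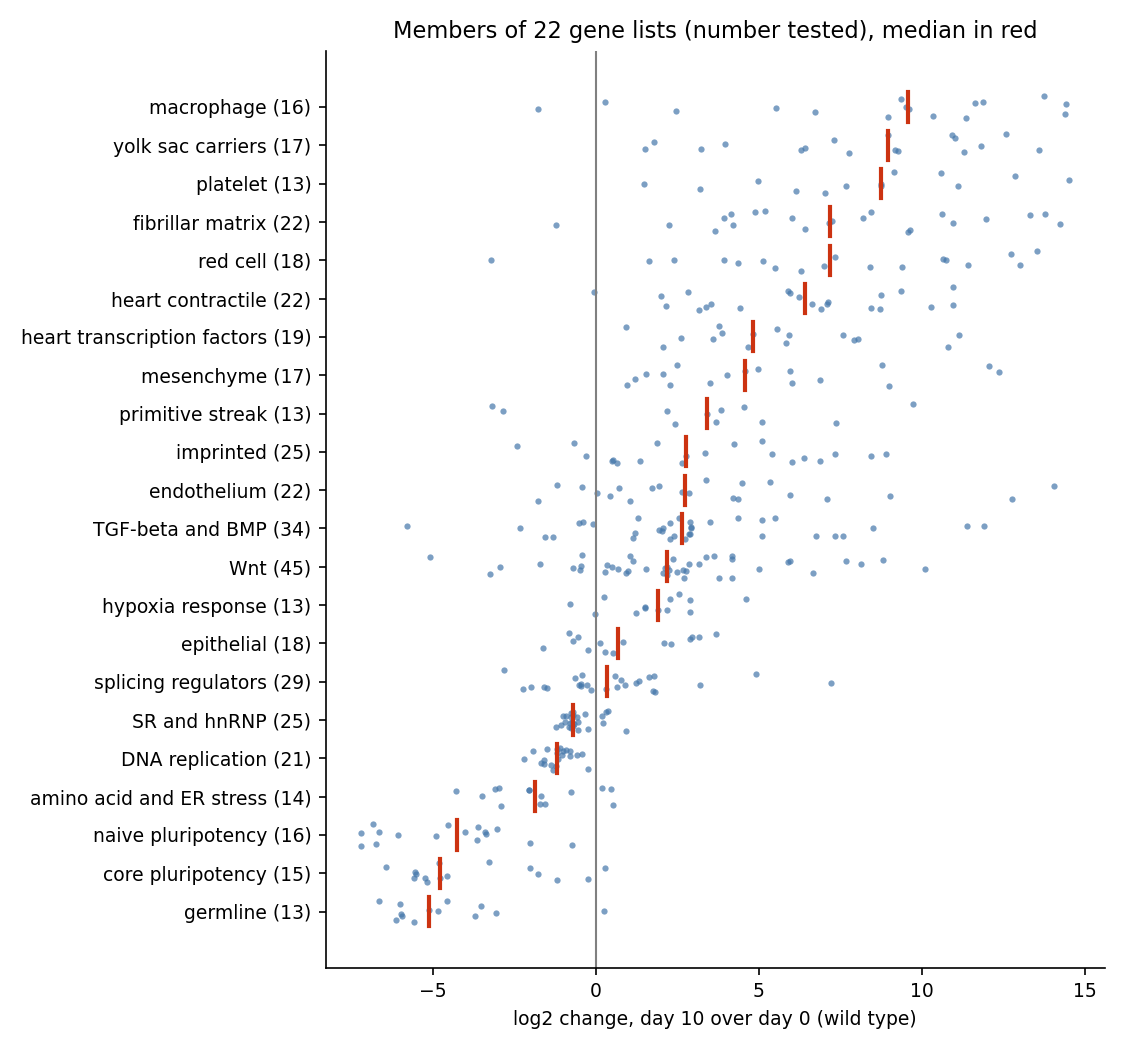
Log2 change of day 10 over day 0 in wild-type cells for tested members of 22 gene lists. Genes that belong to more than 1 list are not drawn. Each point is 1 gene, and the bar is the median of all tested members of its list, drawn or not. The vertical line is the median of all 21060 genes tested, 0.01. Macrophage, yolk sac and platelet lists lie farthest right and germline, core and naive pluripotency lists farthest left.

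A microRNA cluster of pluripotent cells was among what was lost. The reads come from longer RNA that spans a hairpin, not from mature microRNAs, and these genes were picked after their values were seen. Among 143 hairpin genes tested, 41 were lower and 14 higher past 2-fold, with a median log2 change of -0.51. All 7 hairpin genes tested of the cluster from Mir290a to Mir295, on chr7:3218626-3220841 of GRCm38, plus strand, fell, by log2 changes between -3.57 (Mir294) and -4.30 (Mir290a). Mir291b read 1.21, 1.04 and 1.04 CPM at day 10 and 20.9, 19.3 and 16.6 CPM at day 0. At day 3 it averaged 9.02 CPM. No day 10 library came near a day 0 library. In the opposite direction Mir322 of chrX had 1.11, 0.749 and 0.963 CPM at day 10 and 0, 0.0158 and 0 CPM at day 0, and its neighbours Mir351 and Mir503, at 0.738, 0.631 and 0.585 CPM and 0.389, 0.289 and 0.299 CPM at day 10, had no count in any day 0 library.

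Some of the mature sequences these hairpins encode, from RefSeq on GRCm38.p6, are shown for the hairpins that changed. The capitals mark the seed, bases 2 to 8, with which a microRNA pairs to its targets. Within the cluster 3 of these share the seed AAGUGCU, 3 share CUCAAAC and 2 share AUCAAAG.
mmu-miR-291a-3p: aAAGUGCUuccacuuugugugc
mmu-miR-294-3p: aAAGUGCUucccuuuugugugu
mmu-miR-295-3p: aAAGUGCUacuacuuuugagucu
mmu-miR-291b-3p: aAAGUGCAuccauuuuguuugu
mmu-miR-290a-3p: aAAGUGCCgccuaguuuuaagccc
mmu-miR-290a-5p: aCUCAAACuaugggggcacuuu
mmu-miR-292a-5p: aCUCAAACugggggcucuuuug
mmu-miR-293-5p: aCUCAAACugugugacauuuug
mmu-miR-291a-5p: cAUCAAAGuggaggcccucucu
mmu-miR-291b-5p: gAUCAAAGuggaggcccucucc
The rising hairpins encode, among others, the sequences below, none of which has a seed of the cluster.
mmu-miR-322-5p: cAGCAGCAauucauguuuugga
mmu-miR-503-5p: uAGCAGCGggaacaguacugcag
mmu-miR-351-5p: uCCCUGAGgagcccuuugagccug

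Genes of the germ line, which somatic cells keep silent by promoter methylation, were expressed in the stem cells and fell almost completely. Of 13 tested, 12 were lower past 2-fold and none higher, with a median log2 change of -5.12. Ddx4, an RNA helicase of germ cells, had 0.268, 0.486 and 0.416 CPM at day 10, against 26.4, 29.5 and 27.1 CPM at day 0 (log2 change -6.14 ± 0.14, edgeR adjusted p = 1.4e-13). Hormad1, a meiotic chromosome protein, had 0.228, 0.276 and 0.312 CPM at day 10, against 26.5, 29.8 and 28 CPM at day 0 (-6.68 ± 0.14). For both genes every day 10 library lay far below every day 0 library. They differed in timing: at day 3 Ddx4 still averaged 11.9 CPM, while Hormad1 averaged 0.648 CPM. Mael and Mov10l1, which act in the piRNA pathway that represses transposons, had mean levels of 0.281 and 2.24 CPM at day 10 and of 17.5 and 18.8 CPM at day 0. Brdt, a bromodomain protein of spermatocytes, was the exception, with 1.44 ± 0.11 CPM at day 10 and 1.21 ± 0.0193 CPM at day 0, and was not called.

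The enzymes that write and erase DNA methylation changed in both directions. Of 14 tested genes of this machinery, 2 were higher and 6 lower past 2-fold, where 24.2% and 16.5% of all genes were. TET enzymes oxidise methylcytosine and so start its removal. Tet1, the main one of stem cells, had 109, 61.4 and 62.5 CPM at day 10, against 865, 880.4 and 840.5 CPM at day 0 (-3.47 ± 0.19), and Tet2 had 104, 85.7 and 79.5 CPM at day 10, against 355, 355 and 347 CPM at day 0 (-1.97 ± 0.10). Both fell, with no overlap between days. Tet3 had 124, 67.6 and 67.1 CPM at day 10, against 14.5, 14.2 and 13.9 CPM at day 0 (2.60 ± 0.20), and day 10 replicate 1 was the highest of its day for Tet1 and Tet3 alike. Per kilobase of transcript, Tet3 made up 1.5% of Tet3 plus Tet1 at day 0, 6.66% at day 3 and 50.5 ± 0.728% at day 10. The methyltransferase Dnmt3b, which sets new methylation, was lower at day 10 than at day 0 (124, 87.3 and 112 CPM against 212, 212 and 218 CPM, -0.99 ± 0.10). These end points enclose a peak, since Dnmt3b averaged 1637 ± 81 CPM at day 3. Uhrf1, which guides maintenance methylation to newly copied DNA, fell by 1.47 ± 0.06, and Zfp57 and Trim28, which hold methylation at imprinted loci, fell, with log2 changes of -3.13 ± 0.10 and -1.68 ± 0.08.

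Imprinted genes, which are read from only 1 parental copy and many of which control growth, were mostly higher. Of 25 tested, 16 were higher and 1 lower past 2-fold, with a median log2 change of 2.77, and at day 3 8 were higher than at day 0, where 10.1% of all genes were. Igf2, the fetal growth factor at chr7:142650766-142666816, had 3679.9, 3837 and 4269.9 CPM at day 10, against 8.26, 7.99 and 8.54 CPM at day 0 (8.89 ± 0.11). This placed Igf2 among the 10 nuclear protein-coding genes with the most counts at day 10, though 63.8% of its 50-base sequence windows also occur in other annotated genes. Its neighbour H19, a noncoding RNA at chr7:142575529-142578143, had 184, 223 and 337 CPM at day 10 and 2.94, 2.79 and 3.12 CPM at day 0 (6.39 ± 0.23). At day 3 Igf2 had 7.1, 8.06 and 7.71 CPM, which overlapped with day 0, and H19 had 1.1, 0.714 and 1.27 CPM, below every day 0 library.

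Other imprinted genes rose by several routes. Peg3, a zinc finger protein, climbed at each time, with 64.7, 65 and 63.7 CPM at day 0, 337 CPM on average at day 3 and 2289, 2125 and 2247 CPM at day 10. Plagl1, a zinc finger regulator of other imprinted genes, had 313, 247 and 310.1 CPM at day 10 and 0.887, 0.84 and 0.748 CPM at day 0 (8.46 ± 0.13). Dlk1, a membrane protein of immature cells, had 301, 287 and 321 CPM at day 10 and 2.38, 2.35 and 2.54 CPM at day 0 (6.96 ± 0.09). Each of these groups of 3 was tight and stood clear of the other. On chromosome 17 both the receptor that clears IGF2 and the noncoding RNA antisense to it rose: Igf2r had 1438 ± 42.4 CPM at day 10 and 142 ± 1.26 CPM at day 0 (3.34 ± 0.07), and Airn had 13.3 ± 1.33 CPM and 0.176 ± 0.0135 CPM (6.22 ± 0.25). The strand setting of the counting is not given in the sources used here, so reads of Airn and Igf2r may be mixed where they overlap. The member that went the other way was Phlda2, a placental growth inhibitor, with 5.46, 8.61 and 8.34 CPM at day 10 and 39.9, 38.6 and 42.4 CPM at day 0 (-2.43 ± 0.13).

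Polycomb complexes, which keep developmental genes silent through histone marks, changed in both directions. Of 24 members tested, 5 were higher and 7 lower past 2-fold, where 24.2% and 16.5% of all genes were. Of the methylating complex PRC2, the accessory subunits Epop, Jarid2 and Mtf2 fell, with log2 changes of -3.12 ± 0.07, -2.36 ± 0.09 and -2.18 ± 0.06, and so did the core subunit Eed (-2.64 ± 0.07). Among the CBX proteins, which read the mark, Cbx7 had 29.7, 27.1 and 28.9 CPM at day 10 and 219.8, 200.2 and 191 CPM at day 0 (-2.84 ± 0.10), with no overlap between days. Cbx8 and Cbx2 rose by 3.61 ± 0.12 and 1.39 ± 0.07, and the PRC1 subunit Bmi1 by 1.66 ± 0.07. Between the alternative methyltransferases of PRC2, Ezh1 was 16.7 ± 0.574% of Ezh1 plus Ezh2 per kilobase at day 0, 26% at day 3 and 33.9 ± 3.5% at day 10.

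The BAF complex moves nucleosomes. Of 21 subunits tested, 4 were higher and 2 lower past 2-fold, where 24.2% and 16.5% of all genes were. Smarca2, one of the alternative motor subunits, had 52.4, 52.5 and 57.4 CPM at day 10, against 3.61, 3.36 and 2.86 CPM at day 0 (4.04 ± 0.10). It was 0.417 ± 0.0571% of the 2 motors per kilobase at day 0, 0.797% at day 3 and 7.01 ± 0.311% at day 10, so the other motor remained the main one throughout. Smarcd3, a subunit of the heart and muscle form, was 3.89, 3.77 and 3.56% of Smarcd3 plus Smarcd1 at day 0, 0.762% on average at day 3 and 16.9, 22.4 and 20.9% at day 10. Its reads are less certain, since 43.6% of its windows are shared with other genes. Each of the 5 shares of paired genes computed had an exact two-sided permutation p of 0.1, the smallest that 3 against 3 libraries allow. Dpf3, which binds modified histones in heart and muscle, rose by 4.71 ± 0.17, while its relative Dpf1 of the neuronal complex fell by 1.36 ± 0.11.

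**Figure D2:**
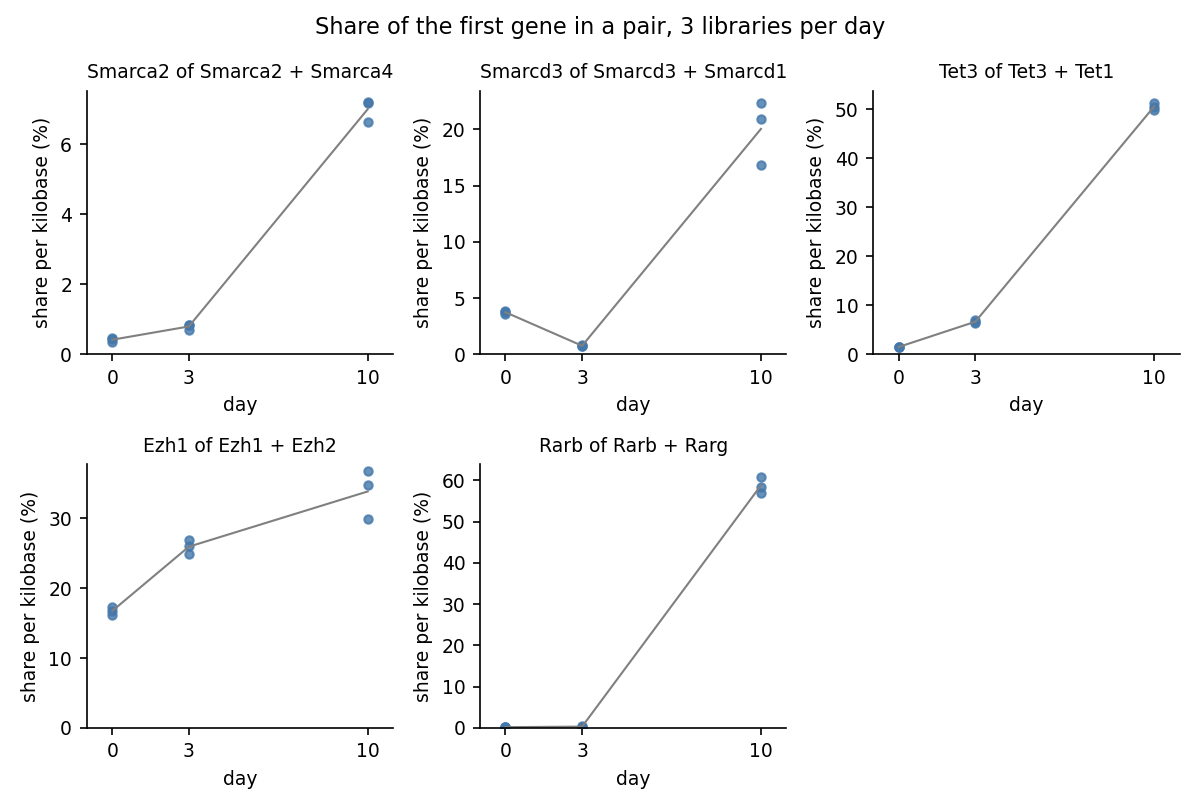
Share of the first gene in the summed length-scaled level of 2 related genes, in percent, for 5 pairs at days 0, 3 and 10 of wild-type differentiation. Points are the 3 libraries of a day and the line joins their means. In all 5 pairs the 3 points of day 10 lie above the 3 of day 0, and Ezh1 is the pair with the largest share at day 0.

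Splicing regulators, the class to which the STAR proteins belong, changed in both directions. Of 29 tested, 9 were higher and 4 lower past 2-fold, where 24.2% and 16.5% of all genes were. Only 1 of 25 general SR and hnRNP factors passed 2-fold, downwards, with a median log2 change of -0.72. Rbm24, a regulator of heart and muscle splicing, had 17.9, 20.1 and 20.4 CPM at day 10, against 0.115, 0.174 and 0.0954 CPM at day 0 (7.22 ± 0.15, edgeR adjusted p = 1.05e-13). Mbnl1, which promotes splicing patterns of differentiated cells, had 69.3, 67.9 and 78.2 CPM at day 10 and 21.2, 20.9 and 19.2 CPM at day 0 (1.81 ± 0.07). The libraries of the 2 days did not overlap for either gene. Celf2 rose by 3.20 ± 0.11 and the epithelial regulator Rbm47 by 1.75 ± 0.14. Esrp1, an epithelial regulator, was highest in between, with 9.42 CPM at day 0, 84.4 CPM at day 3 and 28.8 CPM at day 10 on average. Rbpms2, Celf5 and Elavl2 fell, with log2 changes of -1.99 ± 0.06, -2.82 ± 0.12 and -1.60 ± 0.09.

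Some genes were far higher at day 3 than at either end point. Primitive streak genes mark the cells that become mesoderm and endoderm. Of 13 tested, 10 were higher past 2-fold at day 10 and 11 at day 3, both against the same day 0 libraries. Between the 2 later times, 8 were lower past 2-fold at day 10 than at day 3, where 10.4% of all genes were, and Lhx1 and Mesp1, a regulator of head and kidney and one of heart mesoderm, were near level, at means of 4.67 and 1.95 CPM at day 10 and 5.18 and 2.33 CPM at day 3. Brachyury (gene T), which specifies mesoderm, had 0.706, 0.412 and 0.254 CPM at day 0, 208, 330.4 and 266 CPM at day 3 and 12.2, 7.65 and 12.1 CPM at day 10. Eomes, needed for endoderm and early heart mesoderm, had 3, 3.07 and 3.17 CPM at day 0, 253, 335 and 289 CPM at day 3 and 15.8, 12.6 and 13.7 CPM at day 10. Both therefore rose over the whole span (T by 4.54 ± 0.31, Eomes by 2.18 ± 0.12) although most of the signal was gone by day 10. Mixl1, Evx1 and Fgf8 of the streak averaged 51.6, 36.8 and 73.1 CPM at day 3, and 2.36, 3.33 and 6.28 CPM at day 10. Nodal, the ligand that induces the streak, ended below its start, with 7.11, 7.66 and 7.7 CPM at day 10 and 67.2, 66.8 and 71 CPM at day 0 (-3.19 ± 0.06). Its day 3 mean was 153 CPM.

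Genes of the primed epiblast, the state just before the streak, had the same timing in 8 of 10 cases, which were lower past 2-fold at day 10 than at day 3. Fgf5, its classic marker, had 7.31, 5 and 6.52 CPM at day 10 and 0.345, 0.0951 and 0.223 CPM at day 0 (4.83 ± 0.25). At day 3 it averaged 104 CPM. Otx2 and Zic2, transcription factors of that state, averaged 7.55 and 6.99 CPM at day 0, 117 and 199 CPM at day 3 and 15.4 and 16.5 CPM at day 10. Across the 10 genes of this list, 4 were higher and 3 lower past 2-fold at day 10, close to a balance.

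**Figure D3:**
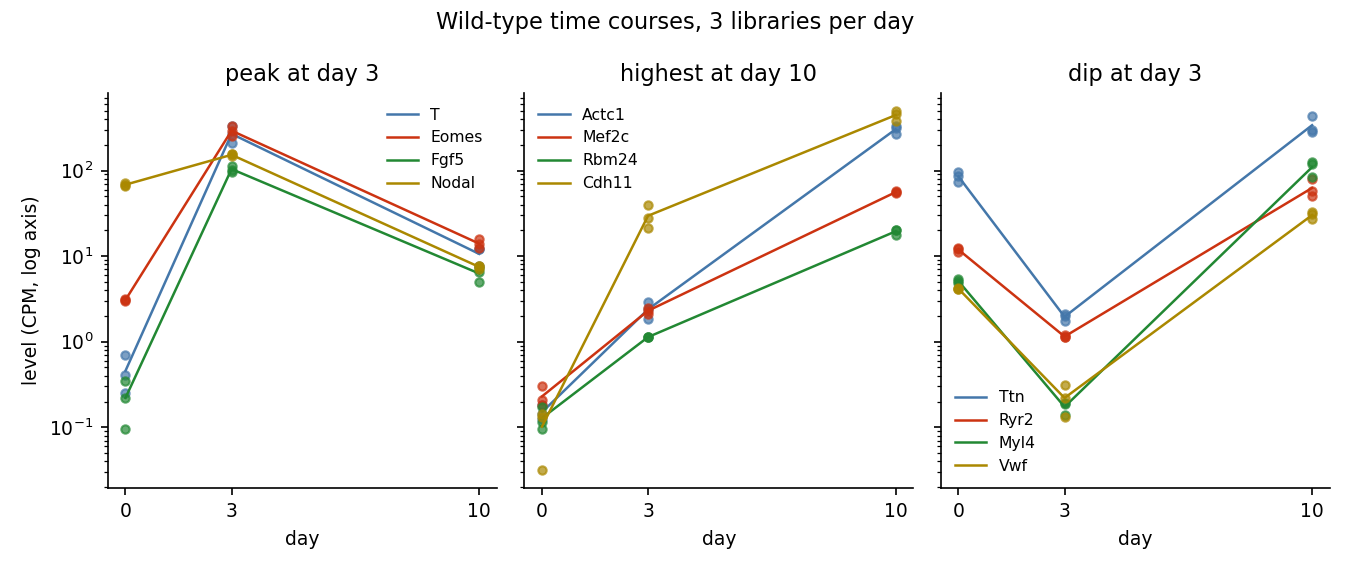
Levels in CPM on a log axis at days 0, 3 and 10 of wild-type differentiation, with 1 point per library and lines through the means. The left panel holds genes that peak at day 3 (T, Eomes, Fgf5, Nodal), the middle panel genes highest at day 10 (Actc1, Mef2c, Rbm24, Cdh11), and the right panel genes that dip at day 3 and end above day 0 (Ttn, Ryr2, Myl4, Vwf).

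Heart muscle genes were higher at day 10 almost throughout. Among transcription factors that build the heart, 18 of 19 were higher past 2-fold, with a median log2 change of 4.82, and only 4 were so at day 3. Mef2c, which switches on muscle genes, had 55.6, 54.6 and 57.4 CPM at day 10 and 0.181, 0.206 and 0.302 CPM at day 0 (7.91 ± 0.13). Gata4 started higher and rose less, with 157, 161 and 149 CPM at day 10 and 14.6, 14.3 and 14.2 CPM at day 0 (3.43 ± 0.07). Nkx2-5, an early heart factor, had 7.65, 7.72 and 7.51 CPM at day 10 and 0.23, 0.254 and 0.318 CPM at day 0 (4.82 ± 0.15). The day 10 libraries agreed within narrow ranges for these 3 factors and none overlapped with day 0. Hand2 of the right heart chambers averaged 64.6 ± 10.9 CPM at day 10 and 0.027 ± 0.0193 CPM at day 0. Hand1 of the left ventricle rose by 6.65 ± 0.14, Tbx20 by 4.67 ± 0.10 and Isl1 of later added heart cells by 5.55 ± 0.16. Tbx1, a factor of the pharyngeal part of the heart field, stayed below 1 CPM on average, at 0.563 ± 0.0818 CPM at day 10 and 0.294 ± 0.0216 CPM at day 0.

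Of 22 genes of the heart's contractile apparatus, 21 were higher past 2-fold and none lower, with a median log2 change of 6.43. At day 3 only 1 of them was higher than at day 0 past 2-fold. Actc1, cardiac actin at chr2:114047282-114053548, had 266, 311 and 332 CPM at day 10, against 0.181, 0.127 and 0.143 CPM at day 0 (10.96 ± 0.20, edgeR adjusted p = 3.58e-14). Tnnt2, cardiac troponin T, had 63.8, 85.8 and 96.2 CPM at day 10 and 0.131, 0.174 and 0.0636 CPM at day 0 (9.36 ± 0.25). Myl7, the atrial light chain of myosin, had 146, 212 and 214 CPM at day 10 and 2.13, 1.73 and 1.91 CPM at day 0 (6.63 ± 0.16). In all 3 genes day 10 replicate 1 was the lowest library of its day and still lay far above every day 0 library. Myl2, the ventricular light chain, and Mybpc3, a myosin-binding protein, rose by 8.72 ± 0.23 and 7.13 ± 0.12.

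Some heart genes were already expressed in stem cells and dipped before they rose. Titin (Ttn), the molecular spring of the sarcomere, had 95, 86 and 74.2 CPM at day 0, 1.96 CPM on average at day 3 and 434, 280.5 and 301 CPM at day 10 (day 10 over day 0, 1.99 ± 0.14). Ryr2, the calcium release channel, had 12.5, 12 and 11.2 CPM at day 0, 1.15 CPM at day 3 and 79.9, 57.6 and 50.3 CPM at day 10 (2.40 ± 0.14). Myl4, the light chain of fetal atria, had 5.37, 4.82 and 5.11 CPM at day 0, 0.173 CPM at day 3 and 84.5, 126 and 118 CPM at day 10 (4.42 ± 0.14). In each, all day 10 libraries were above all day 0 libraries. Unlike Myl7 and Myl4, Ttn and Ryr2 were highest in day 10 replicate 1.

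Calcium handling and conduction genes were less uniform, with 12 of 20 higher and 1 lower past 2-fold. Slc8a1, the sodium-calcium exchanger, had 132, 157 and 145 CPM at day 10 and 0.345, 0.555 and 0.509 CPM at day 0 (8.26 ± 0.13). Hcn4, the pacemaker channel, had 21, 21.8 and 19.3 CPM at day 10 and 0.378, 0.38 and 0.27 CPM at day 0 (5.91 ± 0.14). Both separated the days without overlap. Pln, the inhibitor of the calcium pump, had 14.6, 18.9 and 19.4 CPM at day 10 and no count at day 0, at least 1099.9-fold higher against a floor of 3 counts over the group, though 56% of its windows are shared with other genes. Casq2, the calcium store of the reticulum, fell, with 0.58 ± 0.149 CPM at day 10 and 2.45 ± 0.131 CPM at day 0 (-2.08 ± 0.18). Skeletal muscle did not follow: of 13 listed genes, 6 including Myod1 and Myog had too few counts to be tested, and of the other 7, 2 were higher and 3 lower past 2-fold.

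A known element of muscle promoters was looked for in the genes that moved together. The CArG box, which serum response factor binds, was searched on both strands in the 250 bases before each start in RefSeq's promoters (GRCm38.p6). It occurred in 7 of 28 promoters of the contractile list (25.0%) and in 1 of 11 of the smooth muscle list (9.091%), against 482 of all 32851 (1.467%). Promoters are counted per start, and Ldb3 enters the 7 at more than 1 start with the same site. The sequences ATGCAAAT and AGATAA were searched too. They occurred in 0 and 5 of the 28 (0.0% and 17.857%), against 1.601% and 9.988% of all promoters. The shares were not tested, and a match describes the sequence and not binding in these cells. The windows of 50 bases below are those of genes described in this section, with the box in capitals.
Actc1, chr2:114052893-114052942, minus strand: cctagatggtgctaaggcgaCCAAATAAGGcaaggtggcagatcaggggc
Myl3, chr9:110763573-110763622, plus strand: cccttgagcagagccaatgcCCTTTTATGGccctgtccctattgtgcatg
Myl7, chr11:5898814-5898863, minus strand: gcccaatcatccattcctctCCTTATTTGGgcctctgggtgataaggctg
Nebl, chr2:17462989-17463038, minus strand: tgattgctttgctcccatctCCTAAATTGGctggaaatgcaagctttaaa
Myl9, chr2:156775283-156775332, plus strand: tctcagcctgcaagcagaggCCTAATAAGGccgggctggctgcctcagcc
Of these, Myl3, a light chain of ventricle and slow muscle, rose by 8.45 ± 0.15, and Nebl, a thin filament protein of the heart, by 7.10 ± 0.18.

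Smooth muscle genes rose as well, with 8 of 13 higher past 2-fold and none lower. Acta2, smooth muscle actin, had 114, 167 and 168 CPM at day 10 and 3.73, 4.88 and 4.66 CPM at day 0 (5.08 ± 0.18). Myl9, whose promoter window is printed above, had 60.8, 83 and 76.8 CPM at day 10 and 4.61, 4.04 and 4.45 CPM at day 0 (4.07 ± 0.13). In both genes replicate 1 was the lowest of day 10 and the days did not overlap. Myh11, the smooth muscle myosin that marks mature cells, was nearly absent, at 0.479 ± 0.0771 CPM at day 10 and 0.245 ± 0.0773 CPM at day 0. In the outer lining of the heart, the epicardium, Bnc1 had 71.9, 85.9 and 99.5 CPM at day 10 and 0.148, 0.0634 and 0.0477 CPM at day 0, and Upk3b and Wt1 rose by 5.73 ± 0.16 and 2.70 ± 0.13. Msln, a surface protein of mesothelium, fell instead, with 0.73 ± 0.0642 CPM at day 10 and 7.79 ± 0.562 CPM at day 0 (-3.41 ± 0.16).

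Vessel genes changed unevenly, and several were already expressed in the stem cells. Of 22 tested, 14 were higher and 2 lower past 2-fold. Kdr, the receptor for VEGF, averaged 1 ± 0.0597 CPM at day 0, 1.03 CPM at day 3 and 137 ± 2.98 CPM at day 10. Vwf, the clotting factor stored in endothelium, had 4.15, 4.2 and 4.12 CPM at day 0, 0.22 CPM at day 3 and 32.9, 26.9 and 30.7 CPM at day 10 (2.86 ± 0.11). Pecam1, an adhesion protein of vessels that stem cells also carry, ended slightly below its start, with 57.7 ± 0.997 CPM at day 0, 4.11 CPM at day 3 and 42.7 ± 1.65 CPM at day 10 (-0.44 ± 0.08). Robo4 and Nos3, a guidance receptor and the nitric oxide synthase of vessels, fell, with log2 changes of -1.79 ± 0.12 and -1.21 ± 0.10. Apln, the ligand of the receptor Aplnr, was highest at day 3, with 0.477 CPM at day 0, 69.5 CPM at day 3 and 10.6 CPM at day 10.

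Blood genes rose at the levels of regulators, surface proteins and products. Among progenitor genes 10 of 13 were higher past 2-fold. Runx1, needed for blood stem cells to emerge, had 24, 17.8 and 21.2 CPM at day 10 and 3.35, 3.31 and 3.13 CPM at day 0 (2.69 ± 0.11), and Ptprc, the pan-leukocyte antigen CD45, had 10.3, 11.9 and 14 CPM at day 10 and 0.0493, 0.0475 and 0.0318 CPM at day 0 (8.08 ± 0.24). Day 10 was above day 0 in every library for both. Myb, which definitive but not primitive blood formation needs, was highest at day 3 and was lower at day 10 than at day 0, with 4.4 ± 0.207 CPM at day 0, 22.9 CPM at day 3 and 2.22 ± 0.214 CPM at day 10 (-0.99 ± 0.10). Globins of embryonic and of adult type were both higher. Of the embryonic chains Hbb-bh1 had 139, 138 and 165 CPM at day 10 and Hba-x 161, 127 and 186 CPM, against 0, 0 and 0.0477 CPM and 0, 0.0158 and 0.0477 CPM at day 0. Of the adult-type chains Hba-a1 had 51.9, 48.4 and 64.9 CPM at day 10 and 0.0493, 0.0317 and 0.0159 CPM at day 0, Hbb-bs had 15.4, 17.6 and 31.9 CPM at day 10 and no count at day 0 (at least 1348-fold higher, against 3 counts over the group), and Hbb-bt averaged 3.11 ± 1.18 CPM at day 10. Reads of these are uncertain, since 67.8%, 54.7% and 56% of their windows are shared with other genes.

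Of 16 macrophage genes, 14 were higher past 2-fold and 1 lower, and of 13 platelet genes all were higher. Mrc1, the mannose receptor, had 6.63, 6.96 and 7.38 CPM at day 0, 1.15 CPM at day 3 and 32.8, 40.6 and 41.6 CPM at day 10 (2.45 ± 0.10). Itga2b, a platelet integrin, had 50.9, 44 and 57.6 CPM at day 10 and 1.69, 1.6 and 1.54 CPM at day 0 (4.98 ± 0.11). The macrophage gene that fell was Laptm5, a lysosomal protein of blood cells, with 85.7, 83.3 and 88.4 CPM at day 0, 0.444 CPM at day 3 and 24.1, 22.1 and 28.2 CPM at day 10 (-1.79 ± 0.09). All 3 genes separated the 2 days, and Laptm5 was the one already high in stem cells.

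The visceral yolk sac, the first organ to feed the embryo, makes carrier proteins much as the liver later does. All 17 such genes tested were higher past 2-fold. Afp, alpha-fetoprotein at chr5:90490737-90508907, had 226, 217 and 222 CPM at day 10 and 0, 0.0158 and 0.0318 CPM at day 0, and Apoa1, the main protein of HDL, had 56.4, 70.5 and 63.1 CPM at day 10 and 0.0821, 0.174 and 0.0477 CPM at day 0. Hnf4a, the regulator of such genes, had 38.4, 39.5 and 33 CPM at day 10 and 2.97, 2.79 and 3.17 CPM at day 0 (3.63 ± 0.10). The days did not overlap for any of these 3 genes. Alb, serum albumin and the liver's main product, reached only 4.24, 2.09 and 5.01 CPM at day 10, with no count at day 0.

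Epithelial and mesenchymal genes did not trade places in a simple way. Cdh1 (E-cadherin), the adhesion protein of epithelia and stem cells, had 138, 86.3 and 88.5 CPM at day 10 and 323, 323 and 324 CPM at day 0 (-1.63 ± 0.14). Even so 8 of 18 epithelial genes were higher and 1 lower past 2-fold, among them the keratins Krt8 and Krt18, which rose by 2.88 ± 0.10 and 3.67 ± 0.10. All but 1 of 17 mesenchyme genes were higher past 2-fold. Cdh11, the cadherin of mesenchyme, had 378, 463 and 490.4 CPM at day 10 and 0.131, 0.143 and 0.0318 CPM at day 0 (12.07 ± 0.34), and Foxf1, a factor of lateral mesoderm, rose by 8.99 ± 0.20. The matrix genes Postn, Lum and Fmod, of which none exceeded 1 CPM on average at day 0, had mean levels of 864, 241 and 26.8 CPM at day 10.

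Neural genes moved in both directions. Of 17 neural progenitor genes, 11 were higher and 3 lower past 2-fold, and of 18 neuronal genes, 4 were higher and 5 lower. By the same rule 24.2% of all genes were higher and 16.5% lower. By the first rule 14 progenitor genes rose and 3 fell, and 10 neuronal genes rose and 6 fell, where 41.4% and 39.4% of all genes did. The median log2 change was 3.05 for the progenitor list and 0.41 for the neuronal list. The neuronal genes Tubb3 and Stmn2 were among those that fell. Tubb3, neuronal tubulin, had 7.34, 10.7 and 7.93 CPM at day 10 and 58.8, 56.9 and 60.8 CPM at day 0 (-2.76 ± 0.12), and Stmn2, which regulates microtubules in axons, had 9.21 ± 1.03 CPM at day 10 and 114 ± 5.33 CPM at day 0 (-3.64 ± 0.08). Sox1 and Pax6, markers of neural progenitors, fell, unlike most of the progenitor list, with log2 changes of -2.75 ± 0.12 and -1.92 ± 0.12. Irx3 and Lhx2, factors used in neural and other tissues, rose by 5.43 ± 0.13 and 4.81 ± 0.22.

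Among ligands, receptors and targets of TGF-beta and BMP, 26 of 34 were higher and 4 lower past 2-fold. The ligand Tgfb2 had 63, 64.3 and 69.8 CPM at day 10 and 0.624, 0.634 and 0.557 CPM at day 0 (6.76 ± 0.11), Bmp2 rose by 5.10 ± 0.15 and Tgfb3 by 7.33 ± 0.23. Ligands of the stem cell state moved the other way, with Gdf3 at -5.81 ± 0.14 and the Nodal antagonists Lefty1 and Lefty2 at -2.33 ± 0.14 and -1.56 ± 0.12. Bmp4, which stem cells make and mesoderm makes again, averaged 69.7 ± 1.79 CPM at day 0, 4.25 CPM at day 3 and 48.4 ± 2.67 CPM at day 10. The receptors Tgfbr2 and Tgfbr3 rose by 4.37 ± 0.11 and 5.49 ± 0.11, and the targets and inhibitors Id2, Id3 and Smad6 by 2.91 ± 0.10, 2.39 ± 0.10 and 2.89 ± 0.10.

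In the Wnt pathway, 29 of 45 genes were higher and 4 lower past 2-fold. The ligands Wnt2 and Wnt5a rose by 8.82 ± 0.28 and 5.94 ± 0.20. Among Frizzled receptors Fzd1 rose by 5.90 ± 0.15, while Fzd5 had 19.9, 15 and 18.4 CPM at day 10 and 166, 171 and 176 CPM at day 0 (-3.26 ± 0.10). Secreted inhibitors rose too, Frzb by 8.13 ± 0.31 and Dkk1 by 4.16 ± 0.12. Sfrp1, another one, had 211, 259.7 and 264 CPM at day 10 and 57.1, 54.5 and 56.3 CPM at day 0 (2.13 ± 0.08). Axin2, the standard readout of the pathway, had 15.2, 14.4 and 15.5 CPM at day 0, 126 CPM at day 3 and 30.7, 27.6 and 26.7 CPM at day 10 (0.91 ± 0.08), a rise over the span that was small beside the day 3 level.

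The 2 retinoic acid receptors below moved in opposite directions. Rarb had 36.8, 45.8 and 42.7 CPM at day 10 and 0.591, 0.396 and 0.366 CPM at day 0 (6.53 ± 0.16), and Rarg had 22.5, 23.8 and 24.5 CPM at day 10 and 226, 221 and 234 CPM at day 0 (-3.27 ± 0.06). Per kilobase Rarb was 0.161% of the pair at day 0, 0.298% at day 3 and 58.8 ± 2.02% at day 10, though 36.3% of its windows are shared with other genes. Aldh1a2, which makes retinoic acid, and Cyp26a1, which degrades it, rose by 2.80 ± 0.14 and 5.54 ± 0.26, while Stra8, a retinoic acid target of germ cells, fell by 3.78 ± 0.19. In FGF signalling 7 of 20 genes were higher and 6 lower past 2-fold, with a median log2 change of 0.45. Among targets and inhibitors that respond to the pathway, Etv4 had 17.1, 16.2 and 16.6 CPM at day 10 and 198, 193 and 201 CPM at day 0 (-3.57 ± 0.07), and Etv5 and Spry2 fell, with log2 changes of -2.16 ± 0.05 and -1.31 ± 0.07. The receptors Fgfr2 and Fgfr3 rose by 2.38 ± 0.07 and 2.37 ± 0.08, and the ligand Fgf17 fell by 5.30 ± 0.14.

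Genes of the hypoxia response rose late, with 10 of 13 higher past 2-fold at day 10 and 1 at day 3. P4ha1, a collagen prolyl hydroxylase, had 54.9, 56.5 and 56.2 CPM at day 0, 39.2 CPM at day 3 and 389.7, 474 and 376 CPM at day 10 (2.89 ± 0.09). Vegfa, the vessel growth factor, had 43, 41.6 and 37.6 CPM at day 0, 7.96 CPM at day 3 and 133, 120.4 and 96.6 CPM at day 10 (1.52 ± 0.11). The days did not overlap for either gene. Egln1, an oxygen sensor, and Ndrg1 rose by 2.55 ± 0.15 and 2.89 ± 0.13.

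The amino acid and ER stress response went down, with 10 of 14 lower past 2-fold and none higher. Asns, which makes asparagine, had 64.7 ± 5.88 CPM at day 10 and 554 ± 28.3 CPM at day 0 (-3.10 ± 0.08), and Atf4, the factor that drives this response, had 117 ± 10.8 CPM at day 10 and 379 ± 14.1 CPM at day 0 (-1.70 ± 0.07). Hspa5, the chaperone of the ER arm, rose slightly instead (0.46 ± 0.10). Among cytoplasmic chaperones Hspb1 fell by 3.89 ± 0.12 and Hsp90aa1 fell by 2.79 ± 0.10, with 51.3% and 47.5% of their windows shared with other genes.

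All 21 tested genes of DNA replication fell under TMM scaling, where 39.4% of all genes did, 12 of them past 2-fold. Orc1, of the origin recognition complex, had 103, 103 and 104 CPM at day 0, 68.8 CPM at day 3 and 22.8, 22.5 and 21.8 CPM at day 10 (-2.21 ± 0.06), and Mcm5, of the replicative helicase, fell by 1.92 ± 0.08. All 10 inhibitors of cyclin-dependent kinases rose, against 41.4% of all genes, but only 2 past 2-fold: Cdkn1a, the p53 target p21, had 45.1, 39.3 and 35.2 CPM at day 10 and 14.1, 15.8 and 14.4 CPM at day 0 (1.43 ± 0.09), and Cdkn2c rose by 2.07 ± 0.24. The D cyclins changed in opposite directions. Ccnd2 had 224, 119 and 115 CPM at day 10, with replicate 1 the highest, and 22.8, 24.1 and 21.1 CPM at day 0 (2.75 ± 0.21), whereas Ccnd1 had 77.9 ± 4.35 CPM at day 10 and 175 ± 6.22 CPM at day 0 (-1.17 ± 0.06). With library size as the only scaling, the median of all genes moved to 0.25, and 7 replication genes rather than 12 passed 2-fold.

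By class of RNA, nuclear protein-coding genes took 85.2 ± 1.06% of counts at day 10 and 81.2 ± 1.56% at day 0 (SD, n = 3 each). Mitochondrial ribosomal RNA took 9.59 ± 1.03% at day 10 and 12.7 ± 1.29% at day 0, and mitochondrial mRNA 0.562 ± 0.0949% and 1.02 ± 0.148%. For each of these 3 classes every day 10 library lay on the same side of every day 0 library, and the exact two-sided permutation p was 0.1, the smallest possible. Within mitochondrial ribosomal RNA the fall lay in mt-Rnr2, at 8.84 ± 0.431% at day 10 and 12.3 ± 1.23% at day 0. Its difference was -3.48 points, against -3.15 points for the whole class. The libraries were depleted of ribosomal RNA, and the part of depletion in these shares was not tested. Of 79 nuclear genes of the respiratory chain, 3 were lower and 2 higher past 2-fold. One that rose was Cox6a2, the subunit of heart and skeletal muscle, with 6.73 ± 1.03 CPM at day 10 and 0.166 ± 0.0344 CPM at day 0 (5.33 ± 0.22).

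The same span was set beside the change from day 0 to day 10 in the other 2 lines, with a test of the difference on 12 libraries each time. Both comparisons use the same 6 wild-type libraries, each knock-out label stands for 1 line, library numbers under the Sam68 label form a run of their own (a batch and that label cannot be told apart), and Qk and Khdrbs1 transcripts were still counted in the libraries labelled as their knock-outs. The change differed from wild type for 13.8% of genes in the line labelled Quaking KO and for 46.6% in the line labelled Sam68 KO. The difference, the log2 change under the label minus that in wild type, was called above 0 for 8.63% of genes and below 0 for 5.19% under the Quaking label, and above 0 for 24.6% and below 0 for 22.0% under the Sam68 label. In the line labelled Quaking KO, 9 of 22 contractile heart genes lay below wild type in this difference and none above, with a median difference of -1.17 on the log2 scale beside 0.02 over all genes. In the line labelled Sam68 KO, 15 of the same 22 lay above and none below, with a median difference of 1.15 beside -0.01. Myl7 changed by 4.38 in the line labelled Quaking KO and by 6.64 in wild type (difference -2.26 ± 0.45, edgeR adjusted p = 0.00393). Acta2 changed by 9.61 in the line labelled Sam68 KO and by 5.11 in wild type (difference 4.50 ± 0.28, edgeR adjusted p = 2.12e-08). It averaged 0.496 CPM at day 0 and 389 CPM at day 10 under that label, and 4.40 and 152 CPM in wild type. The difference therefore holds a lower day 0 level in that line as well as a higher day 10 level.

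**Figure D4:**
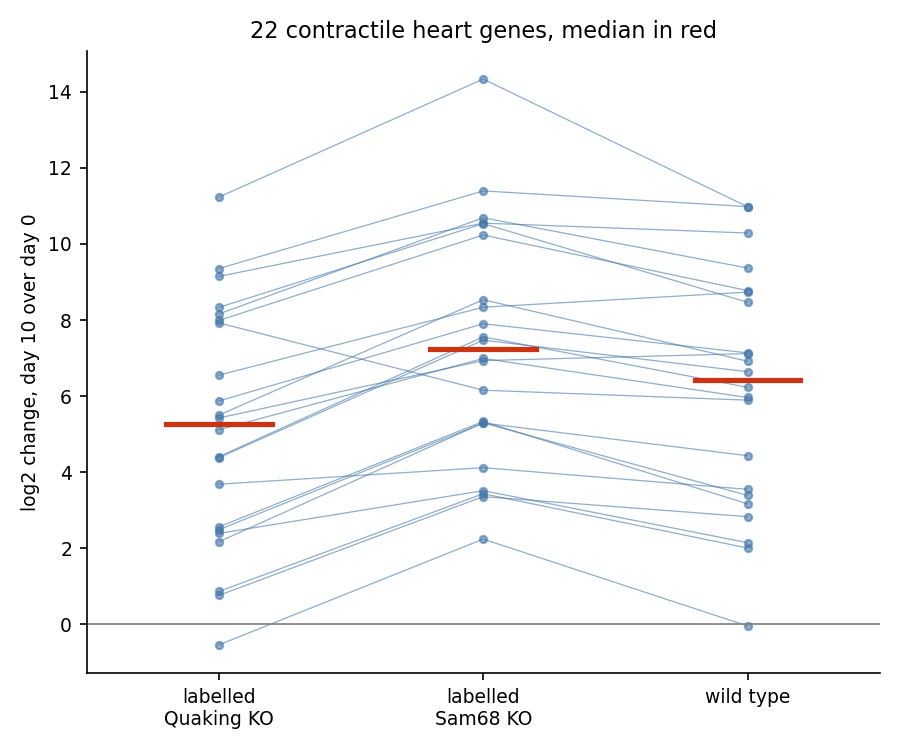
Log2 change from day 0 to day 10 of contractile heart genes in the line labelled Quaking KO, the line labelled Sam68 KO and wild type. Only genes that belong to no other list are drawn. Each line joins 1 gene and each bar is the median of a column. The medians of the Quaking and Sam68 columns lie below and above that of wild type.

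Under the Quaking label the difference lay below wild type for 10 of 13 hypoxia genes and above it for none, and above it for 8 of 12 trophoblast genes and below it for none. Under the Sam68 label 16 of 18 epithelial genes were above wild type, while 10 of 22 endothelial and 9 of 14 blood progenitor genes were below. Imprinted genes were above wild type in 10 of 25 cases under the Quaking label and below in none.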

How the data were processed

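The authors deposited raw counts per gene for each library, whole numbers with no normalization. Reads were handled with bcl2fastq 2.17.1.14 and STAR 2.5.3a on GRCm38 (mm10), per the submitters' processing notes. Neither the counting program nor its strand setting is given in the sources used here. Identifiers were matched without their version to GENCODE M21 on GRCm38 (99.6%), the source of symbols, biotypes and coordinates. The share of a gene's 50-base windows found in other genes was computed from its transcripts.

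Genes were kept by filterByExpr (minimum count 10), scaled by TMM and fitted with edgeR 4.0.16 (R 4.3.3, limma 3.58.1) on the 9 wild-type libraries of days 0, 3 and 10, which share 1 estimate of the spread. The contrast was day 10 minus day 0, by glmQLFTest and by glmTreat against 2-fold, with Benjamini-Hochberg adjustment over all genes. Differences between lines were fitted on 12 libraries. DESeq2 1.42.0, other scalings and filters, a replicate block and each library left out were alternatives. On data simulated for this comparison with 20314 genes, 100 genes were changed by log2 1 and 100 by log2 2. The first rule called 100% of each set and 0.065% of unchanged genes. The second rule called 0% of those at log2 1, its own threshold, and 100% at log2 2. The changed genes were few, went evenly in both directions and were not near 0 counts. The simulation therefore cannot judge the scaling or changes of genes near the floor.

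The edgeR p-values and the SE of log2 changes rest on the spread between replicate libraries. A ± beside a level or share is the SD of the libraries of that group. Floors cover counting error only. The members and gene lists were chosen with earlier results of these data known. Genes named are list members, the 10 largest rises and falls, the 10 most counted genes of each day and the 5 largest differences from wild type per line and direction. Not all of them are described, and some items are not reported here.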

Additional observations from a re-analysis of the deposited data

Results flagged for a closer look

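A test of the difference between lines singled out 20 changes from day 0 to day 10, the 5 largest in each direction for each line. Values are the log2 change in the line labelled as a knock-out minus that in wild type.

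In the line labelled Quaking KO the change exceeded that of wild type by 6.11 for Serpinb9e, a serine protease inhibitor, by 5.56 for Rhox9 and 5.44 for Rhox6, homeobox genes of the placenta and germ line, by 5.1 for Epn3, an endocytic adaptor, and by 6.67 for Lars2, the mitochondrial leucyl-tRNA synthetase. The Lars2 value rests on 1 library. Lars2 had 21.8, 6684.5 and 23.3 CPM in the day 10 libraries of that line, 23.5, 23.4 and 20.9 CPM at its day 0, and 37.7, 22.0 and 23.5 CPM in wild type at day 10. Without replicate 2 of that line's day 10 the difference for Lars2 was 0.055 (edgeR adjusted p = 0.937), and with a replicate block within line it was 1.82 (adjusted p = 0.535). The change was below that of wild type, with differences of -3.73 for Sparcl1, a matrix protein, -2.64 for Alpk2, a kinase of heart and muscle, -2.26 for Myl7, -2.16 for Gipr, a gut hormone receptor, and -2.07 for Tnni3, cardiac troponin I. The calls of Sparcl1 and Alpk2, and below those of Slc18a2 and Aplnr, were lost when single libraries were left out, as listed with the processing. The day 0 levels behind some of these values were close to 0, with means of 0.0109 CPM for Epn3 in the line labelled Quaking KO and of 0.00546 CPM for Sparcl1 and 0.0107 CPM for Alpk2 in wild type.

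In the line labelled Sam68 KO the change exceeded that of wild type by 7.29 for Cox6a2, 4.58 for the skeletal actin Acta1, 4.5 for Acta2, 4.46 for Slc18a2, a monoamine transporter, and 4.45 for Myl9. It was below that of wild type, with differences of -5.78 for Aplnr, the apelin receptor, -4.54 for Slco2b1, an organic anion transporter, -4.2 for Ptafr, the receptor for platelet-activating factor, -4.16 for Bcl11a, a globin gene repressor, and -4.06 for Tmem26. Cox6a2 and Slc18a2 had no count in any day 0 library labelled Sam68 KO, and Aplnr had none in wild type at day 0, so these 3 differences are fitted against a group at 0, depend on the prior count and give neither a size nor a bound. Their mean levels at day 10 were 11.8, 8.62 and 9.27 CPM in that line and 6.84, 8.35 and 31.5 CPM in wild type. Other differences also hold unlike day 0 levels. At day 0 Acta2, Myl9 and Bcl11a averaged 0.496, 0.445 and 12.9 CPM in that line and 4.40, 4.34 and 2.42 CPM in wild type. At day 10 they averaged 389, 169 and 4.79 CPM in that line and 152, 74.7 and 16.0 CPM in wild type. Each label stands for 1 line, and a difference between lines of other origin cannot be told apart from the knock-out.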

How the results depend on the processing

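The counts of genes called, for the span itself, for all lists together and for the differences between lines, stayed within 1.5 times their value under every alternative run. Past 2-fold the count was 8556, 7314 by DESeq2, 9971 of 35114 genes with no filter and 6239 with a filter of 1 CPM. With library size as the only scaling the median log2 change of all genes was 0.25 rather than 0.01, and 68.0% rather than 59.5% of genes past 2-fold were higher at day 10 (60.0% rather than 51.3% of all genes called). Of 3105 values for named genes, 3087 kept direction and call. Those that changed sign were small: library size as the only scaling gave 0.127 for Eef1a1 and 0.108 for Tubb5, protein-coding genes alone gave -0.017 for Eef2 and -0.016 for Nedd4, and leaving out single libraries gave -0.188 to 0.014 for Eef1a1. Brdt was called higher (0.478) with library size as the only scaling. Khdrbs1, the gene of Sam68, was not called in the main fit, but its call depended on the processing. It was called higher with edgeR's RLE scaling (0.282), library size only (0.489), DESeq2 (0.282) and no filter (0.248). The same held without day 10 replicate 2 (0.349) or replicate 3 (0.33). Of 1764 counts for lists, 52 moved by more than 1.5 times, most of them counts under 5. Besides the replication genes, genes lower past 2-fold among vessel genes numbered 1 rather than 2 without day 10 replicate 2 or replicate 3, and neural progenitor genes higher past 2-fold 6 rather than 11 with a filter of 1 CPM. As shares of protein-coding counts alone, the difference of day 10 minus day 0 was 0.5867 points for nuclear coding RNA, -0.5867 points for mitochondrial mRNA and -4.326 points for mitochondrial ribosomal RNA, by the construction of that denominator.

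Replicate numbers did not pair the samples, with correlations of deviations at 0.20, -0.09 and 0.18 between same-numbered libraries of days 10 and 0, and day 10 replicate 2 was closest to day 0 replicate 3 (0.23). With a replicate block 17251 genes were called rather than 17017, and 8634 rather than 8556 past 2-fold.

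Among differences between lines, the Sparcl1 call was lost with 6 libraries left out in turn (-3.81 to -3.27), that of Alpk2 by DESeq2 (-2.81, adjusted p = 0.0727) and with 10 libraries left out in turn (-3.001 to -2.121), that of Slc18a2 with 6 (3.34 to 4.53) and that of Aplnr without Sam68 day 0 replicate 3 (-5.09, adjusted p = 0.0508). The Lars2 call was lost with 9 of the 12 left out in turn. The causes were not tested. Counting limits the genes listed with no count at day 0, for which 3 counts over the group set the floor.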

Other observations

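Many genes of cholesterol synthesis were highest at day 3. Of 17 tested, 13 were higher past 2-fold at day 3 than at day 0 and only 2 at day 10, against the same day 0 libraries, and 7 were lower past 2-fold at day 10 than at day 3. Hmgcs1, an early enzyme of the pathway, averaged 158 ± 9.55 CPM at day 0, 564 ± 26 CPM at day 3 and 278 ± 9.17 CPM at day 10. Insig1, which holds back the pathway's activator, averaged 40.7 ± 0.925, 106 ± 4.02 and 122 ± 16.1 CPM at those times, with no fall after day 3. The matrix beneath epithelia changed by chain. Of 15 basement membrane genes, 8 were higher past 2-fold and none lower. The collagen IV chain Col4a5 had 204, 261 and 302 CPM at day 10 and 0.509, 0.65 and 0.668 CPM at day 0 (8.71 ± 0.18), while the common chain Col4a1 rose by 2.68 ± 0.07 and the heparan sulfate proteoglycan Hspg2 fell by 0.69 ± 0.13.

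Cartilage genes were among those that rose. Sox5 and Sox6, regulators of cartilage cells, rose by 6.99 ± 0.20 and 5.81 ± 0.11, and Col2a1, the main cartilage collagen, had 89.7, 81.5 and 80.1 CPM at day 10 and 4.94, 4.88 and 4.87 CPM at day 0. Spp1 (osteopontin) and Alpl, a phosphatase of bone and stem cells, fell, with log2 changes of -4.40 ± 0.11 and -2.06 ± 0.08, and both were already expressed at day 0. In the Hedgehog pathway Ptch1, a receptor and target, had 186 ± 37.1 CPM at day 10 and 71.9 ± 1.75 CPM at day 0 (1.37 ± 0.11). B2m, the light chain of class I antigens, rose by 3.21 ± 0.10. Sall1, a factor of kidney and stem cells, and Nphs1, the slit protein of the kidney filter, fell, with log2 changes of -2.67 ± 0.11 and -5.41 ± 0.14. Among the largest falls outside these lists, Inhbb, a subunit of activin and inhibin, had 0.362, 0.421 and 0.598 CPM at day 10 and 83.7, 86.3 and 87 CPM at day 0. Mymx, which fuses muscle cells, had 0.188, 0.263 and 0.273 CPM at day 10 and 41.3, 44.5 and 45.5 CPM at day 0, and Chrna9, a nicotinic receptor subunit, 0.0268, 0.0394 and 0.0911 CPM and 18.6, 16.4 and 17.1 CPM.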
